A study of Macaca fascicularis with 16 samples.

Results

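PADI2, RYR2, LAMP5, C2H3orf18, KMO, SLC6A15 and VEPH1 are 7 genes that were picked from earlier results of these arrays for high signal in mammary tissue of macaques given an estrogen together with a progestin. They were measured by 12 of the 52865 probe sets on the array, taking every probe set whose annotation gives 1 of these symbols alone, and are 7 of 14132 genes named there. Of the 12 probe sets, 10 passed a filter on low signal (over 60.2, the median of all values, on at least 4 of the 16 arrays), and each of the 7 genes kept at least 1. The study took total RNA from mammary tissue of postmenopausal, ovariectomized female cynomolgus macaques (Macaca fascicularis), with 1 Affymetrix rhesus macaque array per animal and 4 animals per group. The groups were tibolone (0.2 mg/kg, a synthetic steroid, named OD14-HIGH in the sample titles), CEE+MPA (0.042 mg/kg conjugated equine estrogens with 0.167 mg/kg medroxyprogesterone acetate, a progestin), CEE (0.042 mg/kg conjugated equine estrogens) and control (no treatment). Removal of the ovaries, and so of their hormones, was common to all 4 groups. The labels give no treatment duration and no ages.

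The genes belong to different pathways. Peptidylarginine deiminases such as PADI2 are calcium-dependent enzymes that turn arginine residues of proteins, histones among them, into citrulline. RYR2 is a calcium release channel of the endoplasmic and sarcoplasmic reticulum, best known from heart muscle. KMO hydroxylates kynurenine, a breakdown product of tryptophan, and SLC6A15 carries neutral amino acids into cells together with sodium. LAMP5 is a relative of the lysosomal membrane proteins, known from neurons and plasmacytoid dendritic cells. VEPH1 encodes a protein with a pleckstrin homology domain, whose Drosophila relative melted acts in insulin and Hippo signalling. C2H3orf18 is the macaque counterpart of human C3orf18, whose function is little known. In the mammary gland, estrogen and progestin act on luminal epithelial cells through their receptors, and the combination drives growth of ducts and alveoli.

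The mammary origin of the tissue was checked on 13 luminal epithelial markers, of which 12 were tested and CDH1, at no more than 57.5, was not. KRT19, a luminal keratin, had a signal of at least 10401 on every array, and ELF5, a transcription factor of luminal progenitor and alveolar cells, at least 3127. The summed signal of the luminal list was 31487 to 58603 on tibolone arrays, 53305 to 64739 with CEE+MPA, 52182 to 59826 with CEE and 42311 to 45758 in controls. Bright genes weigh most in this sum, among them ELF5, at a mean of 14736 with CEE+MPA against 7786 in controls. Relative to the mean of the 16 arrays on the log2 scale, the list averaged -0.033 ± 0.32 with tibolone and -0.019 ± 0.13 with CEE+MPA. It averaged 0.075 ± 0.087 with CEE and -0.023 ± 0.027 in controls (SD, n = 4 each). Skeletal muscle markers, 12 of 17 tested, were high on tibolone replicates 2 and 3, CEE+MPA replicate 1 and control replicate 1, where their mean lay 1.40 to 2.71 above the mean of the 16 arrays on the log2 scale. By the signal of spike-in controls the arrays were clustered into 2 sets, a number set beforehand. The low set held 2 arrays each of CEE+MPA, CEE and control, and the high set the other 2 of each and all 4 tibolone arrays. The mean log2 signal of the dap spike-in was 7.57 to 7.79 on tibolone arrays, 6.94 to 7.29 in the low set and 7.87 to 8.45 on the other high arrays. Tibolone treatment and this spike-in level therefore cannot be told apart. Because bulk tissue was measured, fewer cells of a type and less RNA per cell cannot be told apart in any of the values below.

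PADI2, the deiminase gene, had its highest signals with CEE+MPA, followed by CEE. On its brightest probe set the signal was 1687, 575, 416 and 2202 on the 4 tibolone arrays and 3506, 3687, 3872 and 4487 on the CEE+MPA arrays. It was 2317, 2091, 3800.0 and 3291 on the CEE arrays, against 1603, 615, 1491 and 1295 in controls. Every CEE and CEE+MPA array thus lay above every control, while CEE+MPA and CEE arrays overlapped. Of the tibolone arrays 2 lay above and 2 below the whole control range. The mean was 3888 ± 426 with CEE+MPA and 2875 ± 807 with CEE, against 1251 ± 443 in controls (SD, n = 4 each). The difference in log2(signal + 16) from control was 1.71 ± 0.43 for CEE+MPA (standard error from limma), given as a description, and 1.24 ± 0.43 for CEE. The CEE difference did not pass (limma, adjusted p = 0.279), with a 95% interval of 0.31 to 2.16.

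RYR2, the calcium channel gene, had the largest CEE+MPA difference from control of the 7 genes, 2.34 ± 0.64 on the log2 scale, as a description. Its signal was 82.4, 65.8, 93.3 and 1055 with tibolone and 763, 201, 554 and 723 with CEE+MPA. It was 421, 225, 571 and 238 with CEE, against 82.0, 67.5, 88.8 and 111 in controls. All CEE and all CEE+MPA arrays lay above all controls, and the highest value of the series came from tibolone replicate 4. The other 3 tibolone arrays, at 65.8 to 93.3, lay near the controls. CEE differed from control by 1.79 ± 0.64, which did not pass (limma, adjusted p = 0.287). Tibolone differed from control by 0.78 ± 0.64 (limma, adjusted p = 0.914), and by -0.094 without tibolone replicate 4. The skeletal muscle list was at -0.83 on tibolone replicate 4, where RYR2 was highest, and at 2.71 on control replicate 1, where RYR2 was 82.0. Within CEE+MPA it was highest on replicate 1, at 1.40, where RYR2 was highest at 763, and lowest on replicate 2, at -0.98, where RYR2 was lowest at 201. Of 8 heart muscle markers 3 were tested, with summed signals of 173 to 1049 with tibolone, 109 to 498 with CEE+MPA, 96.1 to 284 with CEE and 113 to 646 in controls, and a list mean of -0.29 on tibolone replicate 4 and 1.12 on CEE+MPA replicate 1, the highest of its group. The natriuretic peptide genes NPPA and NPPB did not exceed signals of 64.7 and 31.4 on any array. The highest signals of the other heart markers were 853 for MYH6, 335 for MYL7, 134 for ACTC1, 119 for TNNT2, 49.6 for MYBPC3 and 20.5 for TNNI3. The skeletal muscle list stood at -1.29 to -0.93 on CEE arrays, where RYR2 was 225 to 571. In controls the list stood at -0.85 to 2.71, where RYR2 was 67.5 to 111. The part of muscle in the RYR2 values was not tested.

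LAMP5, the lysosomal membrane protein relative, varied widely between animals of the CEE+MPA group. Its signal was 76.6, 108, 54.8 and 63.3 with tibolone, and 93.3, 1736, 292 and 382 with CEE+MPA. It was 59.4, 51.9, 43.6 and 65.6 with CEE, against 154, 54.6, 58.4 and 85.3 in controls. CEE+MPA replicates 2, 3 and 4 lay above every array of the other groups, and CEE+MPA replicate 1 lay above all CEE arrays but within the tibolone and control ranges. The CEE+MPA difference was 2.005 ± 0.56 from control and 2.47 ± 0.56 from CEE, and replicate 2 moved both, to 1.28 and 1.75 when it was left out. CEE alone stood at -0.47 ± 0.56 from control (limma, adjusted p = 0.779), with an interval of -1.66 to 0.73. LAMP5 was the only one of the 7 genes with a CEE mean below the control mean on the log2 scale. Markers of plasmacytoid dendritic cells, 4 of 9 tested, had a list mean of -0.14 on CEE+MPA replicate 2, where LAMP5 was highest, and 0.07 on replicate 1, where it was lowest. The defining markers CLEC4C, LILRA4 and IL3RA were not analysed here, PTCRA did not exceed 87.5, and the 4 tested markers summed to 3832 to 5649 with tibolone, 5650.5 to 7196 with CEE+MPA, 5145 to 6821 with CEE and 4322 to 6271 in controls. Neuronal markers, 3 of 9 tested, stood at -0.30 on replicate 2 and -0.033 on replicate 1. They summed to 917 to 1600.2 with tibolone, 898 to 1418 with CEE+MPA, 883 to 1224 with CEE and 1259.8 to 1639.9 in controls. The part of either cell type in the LAMP5 values was not tested further.

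C2H3orf18, the gene of little known function, had the smallest standard error of the 7 genes. Its signal was 182, 166, 112 and 321 with tibolone and 402, 601, 538 and 455 with CEE+MPA. It was 299.8, 497, 475 and 432 with CEE, against 116, 116, 108 and 221 in controls. No CEE or CEE+MPA array fell as low as the highest control, and the CEE+MPA and CEE ranges overlapped. CEE+MPA differed from control by 1.76 ± 0.27 and CEE by 1.53 ± 0.27 (limma, adjusted p = 0.0504, interval 0.95 to 2.11), so the CEE difference missed the threshold of 0.05 narrowly. It passed in 9 of 31 alternative analyses, with an adjusted p between 0.00986 and 0.754 over all of them. CEE+MPA minus CEE was 0.23 ± 0.27, smaller than its error.

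KMO, the kynurenine hydroxylase gene, did not follow the pattern for which the 7 genes were picked. Its signal was 63.2, 330.5, 204 and 126 with tibolone and 287, 693, 1133 and 4148 with CEE+MPA. It was 2464, 2750.0, 1480.5 and 1969 with CEE, against 699, 301, 1726 and 166 in controls. The mean was 181 ± 115 with tibolone, 1565 ± 1756 with CEE+MPA and 2166 ± 559 with CEE, where it was highest, against 723 ± 706 in controls (SD, n = 4 each). CEE+MPA minus CEE was -1.08 ± 0.73 as a description, and only CEE+MPA replicate 4 exceeded the CEE arrays. It was -1.76 without CEE+MPA replicate 4 and -0.50 without CEE+MPA replicate 1. CEE+MPA minus control was 0.96 ± 0.73, and 0.28 without CEE+MPA replicate 4 and 1.54 without control replicate 3. Tibolone arrays all lay below all CEE arrays, a difference of -3.63 ± 0.73 that did not pass (limma, adjusted p = 0.162, interval -5.18 to -2.09). CEE against control gave 2.04 ± 0.73 (limma, adjusted p = 0.285) and tibolone against control -1.60 ± 0.73 (limma, adjusted p = 0.913). Controls ranged from 166 to 1726, with replicate 3 inside the CEE range. The macrophage list, 8 of 9 tested, averaged 0.09 ± 0.30 with tibolone, -0.12 ± 0.17 with CEE+MPA, -0.27 ± 0.31 with CEE and 0.30 ± 0.18 in controls (SD, n = 4 each), and was lowest in the group where KMO was highest. These markers summed to 9303 to 13237 with tibolone, 12528 to 15121 with CEE+MPA, 8122 to 14885 with CEE and 11848 to 16267 in controls. The part of macrophages in the KMO values was not tested.

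SLC6A15, the amino acid transporter gene, varied little among CEE+MPA animals, at 378 ± 19.2 (SD, n = 4). Its signal was 99.6, 47.3, 24.3 and 166 with tibolone and 382, 403, 362 and 364 with CEE+MPA. It was 126, 235, 191 and 208 with CEE, against 196, 28.2, 171 and 252 in controls. The 4 CEE+MPA arrays lay above all 12 others, whereas the CEE range fell inside the control range. CEE+MPA differed from control by 1.42 ± 0.49 and from CEE by 0.96 ± 0.49, both as descriptions. CEE stood at 0.46 ± 0.49 from control (limma, adjusted p = 0.746). Without control replicate 2, the lowest control at 28.2, CEE+MPA stood at 0.84 from control and CEE at -0.12.

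VEPH1, which encodes the melted relative, followed the same order of group means as PADI2 and SLC6A15. Its brighter probe set read 37.6, 30.9, 4.14 and 153 with tibolone and 285, 248, 198 and 207 with CEE+MPA. It read 133, 109, 212 and 111 with CEE, against 50.4, 40.6, 81.1 and 115 in controls. All CEE+MPA arrays lay above all tibolone and control arrays, and 1 CEE array reached into the CEE+MPA range. CEE+MPA differed from control by 1.58 ± 0.46 and from CEE by 0.71 ± 0.46, as descriptions. CEE differed from control by 0.87 ± 0.46 (limma, adjusted p = 0.456) and tibolone by -0.62 ± 0.46 (limma, adjusted p = 0.913). The tibolone difference was -0.14 without tibolone replicate 3 and -1.17 without tibolone replicate 4.

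**Figure D1:**
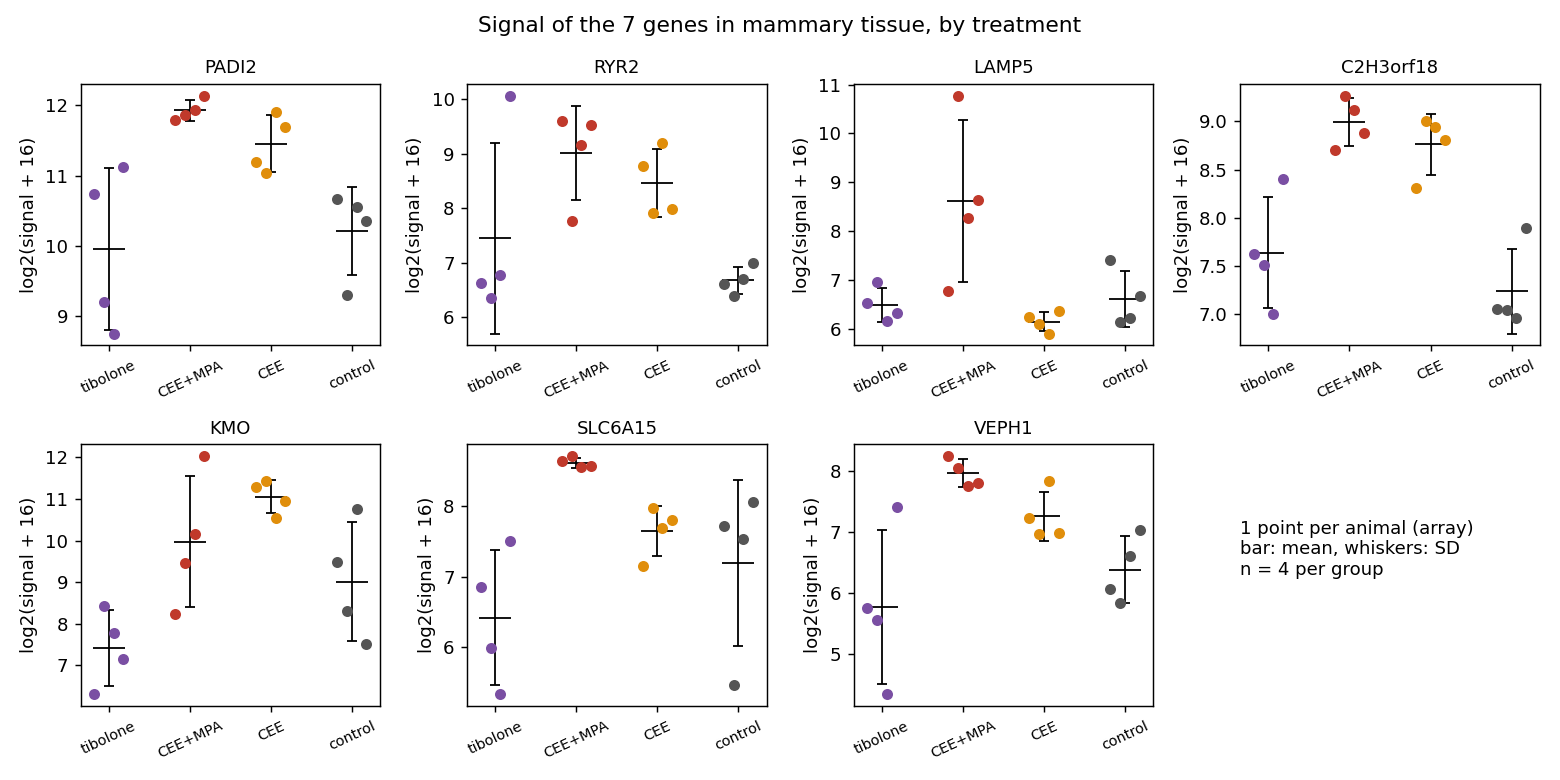
Signal of each gene's brightest tested probe set as log2(signal + 16) in tibolone, CEE+MPA, CEE and control animals; points are animals, bars group means and whiskers SD (n = 4). SLC6A15 is highest on all 4 CEE+MPA arrays, RYR2 is highest on 1 tibolone array, KMO has its highest mean with CEE, and LAMP5 spreads from 93.3 to 1736 in signal within CEE+MPA.

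In the order of mean log2 signals, CEE+MPA came first for 6 of the 7 genes and second to CEE for KMO. The place of CEE+MPA is fixed in part by how the genes were picked. CEE came second for PADI2, RYR2, C2H3orf18, SLC6A15 and VEPH1, and last for LAMP5. Neighbours in these orders overlapped in their ranges with 2 exceptions over the 7 genes, CEE above control for PADI2 and CEE+MPA above CEE for SLC6A15. Tibolone came last for PADI2, KMO, SLC6A15 and VEPH1, next to last for RYR2, LAMP5 and C2H3orf18.

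Genes with more than 1 probe set were compared across them. The second RYR2 probe set correlated with the first at r = 0.99 over the 16 arrays and gave a CEE+MPA difference from control of 2.07 ± 0.64. The second VEPH1 probe set correlated with the first at 0.84 and gave 0.99 ± 0.28. The tested second probe set of PADI2, at 0.78, gave 1.81 ± 0.51, and also placed tibolone above control, by 0.63 ± 0.51, where the brightest probe set placed it below, by -0.27 ± 0.43. Neither of these tibolone differences passed (limma, adjusted p = 0.913 and 0.952). The dimmest PADI2 probe set exceeded the filter on 3 arrays and was not tested, and the second KMO probe set exceeded it on 0 arrays, with signals of 8.48 to 34.4 in all groups.

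The response to estrogen alone was addressed by CEE against control. The CEE+MPA arrays do not enter this difference, but they enter the spread behind its error and p, since 1 model was fitted to all 16 arrays, and the controls may have been used in picking the genes. In this comparison 0 of the 7 genes passed (limma), beside 0.0574% of the 10452 genes tested. In a model of only the CEE and control arrays 2 passed, and the share of all genes that passed there is not given here. Over the alternative analyses, the probe sets past the threshold in CEE against control ranged from 2 to 140, against 21. Before adjustment, in the model of all 16 arrays, PADI2, RYR2, C2H3orf18 and KMO had a p under 0.05, 4 of 7, beside 14.2% of all genes. Every CEE array lay above every control for PADI2, RYR2 and C2H3orf18, 3 of 7 genes, beside 5.28% of all genes. The median difference of the 7 genes was 1.24, and that of all genes tested was 0.01. For the same 7 genes CEE+MPA against control gave a median of 1.71, and 5 of 7 had every CEE+MPA array above every control, beside 9.04% of all genes, a count fixed in part by how they were picked. These comparisons share the control arrays. CEE+MPA minus CEE had a median of 0.54 over the 7 genes and ranged from -1.08 for KMO to 2.47 for LAMP5. SLC6A15 and LAMP5 were the 2 genes for which every CEE+MPA array lay above every CEE array, beside 2.43% of all genes. That count is likewise fixed in part by how the genes were picked.

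**Figure D2:**
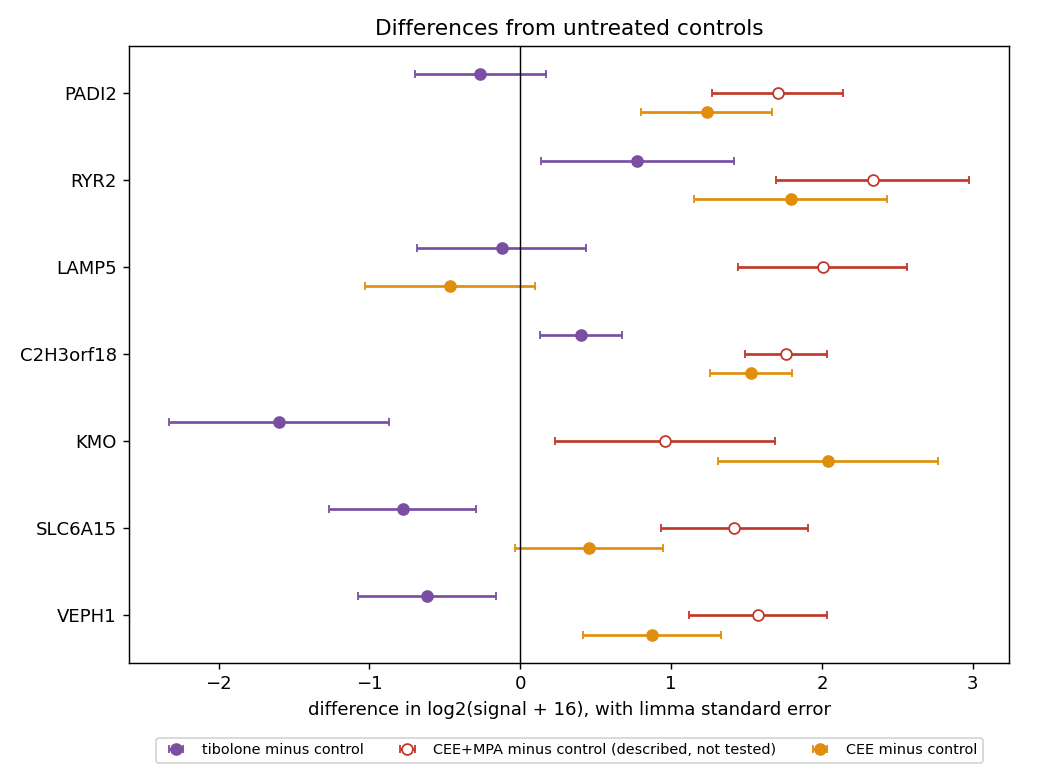
Difference of each treatment group from control in log2(signal + 16), with limma standard errors (n = 4 per group); filled points were tested and open points are descriptions. CEE lies close to CEE+MPA for C2H3orf18 (1.53 and 1.76), above it for KMO (2.04 and 0.96) and on the other side of 0 for LAMP5 (-0.47 and 2.005).

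Tibolone, a synthetic steroid whose metabolites act on steroid receptors, was set against control and against CEE. Against control 0 of the 7 genes passed (limma), beside 0.00957% of all genes, and 1, KMO, had an unadjusted p under 0.05, beside 4.83% of all genes. The median difference was -0.27, from -1.60 for KMO to 0.78 for RYR2. Against CEE, a comparison with neither the control nor the CEE+MPA arrays in its difference, though both in its error, 0 of 7 passed (limma), beside 0% of all genes. CEE arrays may have been used in picking the genes, and are then shared. PADI2, C2H3orf18, KMO, SLC6A15 and VEPH1 had an unadjusted p under 0.05, 5 of 7, beside 13% of all genes. Their differences from CEE were -1.50 ± 0.43, -1.13 ± 0.27, -3.63 ± 0.73, -1.24 ± 0.49 and -1.49 ± 0.46, with adjusted p between 0.162 and 0.354 (limma). Without tibolone replicate 4, PADI2, RYR2, C2H3orf18 and VEPH1 passed (limma, adjusted p 0.0283 to 0.0445), so 1 animal decided these calls. The share of all genes that passed without that array is not given here. With single arrays left out, the probe sets past the threshold in this comparison numbered 0 to 238, against 2. KMO was the 1 gene with every tibolone array below every CEE array, beside 3.02% of all genes. Tibolone minus CEE+MPA was below 0 for all 7 genes, from -2.56 for KMO to -1.36 for C2H3orf18, as a description. For PADI2, C2H3orf18, SLC6A15 and VEPH1 every tibolone array lay below every CEE+MPA array, 4 of 7, beside 7.03% of all genes. This count, too, is fixed in part by how the genes were picked.

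The tibolone animals differed widely among themselves. Replicate 4 had the highest tibolone signal for PADI2, RYR2, C2H3orf18, SLC6A15 and VEPH1, and replicate 3 the lowest for PADI2, LAMP5, C2H3orf18, SLC6A15 and VEPH1. On replicate 3 the luminal list mean was -0.50, the lowest of the 16 arrays, and the skeletal muscle list mean was 1.64. On replicate 2, also low in PADI2 and RYR2, the luminal mean was 0.12 and the skeletal muscle mean 2.45. Without the 4 arrays with high skeletal muscle signal, tibolone minus control was 0.85 for PADI2, 0.16 for SLC6A15 and 0.09 for VEPH1, where over all arrays it was below 0. In controls, replicate 2 was lowest for PADI2, RYR2, LAMP5, SLC6A15 and VEPH1, with a luminal mean of -0.04 and a skeletal muscle mean of -0.85. With the luminal list mean as a covariate the CEE+MPA differences from control were 0.96 to 2.33, against 0.96 to 2.34 without it. That list mean was -0.019 with CEE+MPA and -0.023 in controls, so this covariate could move the differences little. With the skeletal muscle list mean as a covariate the CEE+MPA differences from control were 1.01 to 2.28, and the CEE difference of C2H3orf18 was 1.30 (limma, adjusted p = 0.177). Smooth muscle and fibroblast list means stood at -0.75 ± 0.28 and -0.48 ± 0.31 with CEE+MPA, against 0.41 ± 0.25 and 0.51 ± 0.17 in controls (SD, n = 4 each). The basal and myoepithelial list, 4 of 8 tested, without KRT5, KRT14, KRT17 and ACTA2, stood at -0.72 ± 0.45 with CEE+MPA, against 0.33 ± 0.17 in controls, with summed signals of 1179 to 2380.2 against 3791 to 4524. Endothelial and adipocyte lists stood at -0.29 ± 0.088 and -0.36 ± 0.39 with CEE+MPA, against 0.20 ± 0.24 and 0.36 ± 0.37 in controls. Every CEE+MPA array lay below every control in the list mean for the smooth muscle, fibroblast, basal and endothelial lists. The same held for the macrophage, neuron and Schwann cell lists. Every CEE array, too, lay below every control for the fibroblast, basal, endothelial, macrophage and neuron lists. For the smooth muscle and Schwann cell lists CEE and control arrays overlapped. The fibroblast list stood at -0.17 ± 0.20 with CEE, and the basal list at 0.12 ± 0.13. The part of these lists in the differences was not tested.

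**Figure D3:**
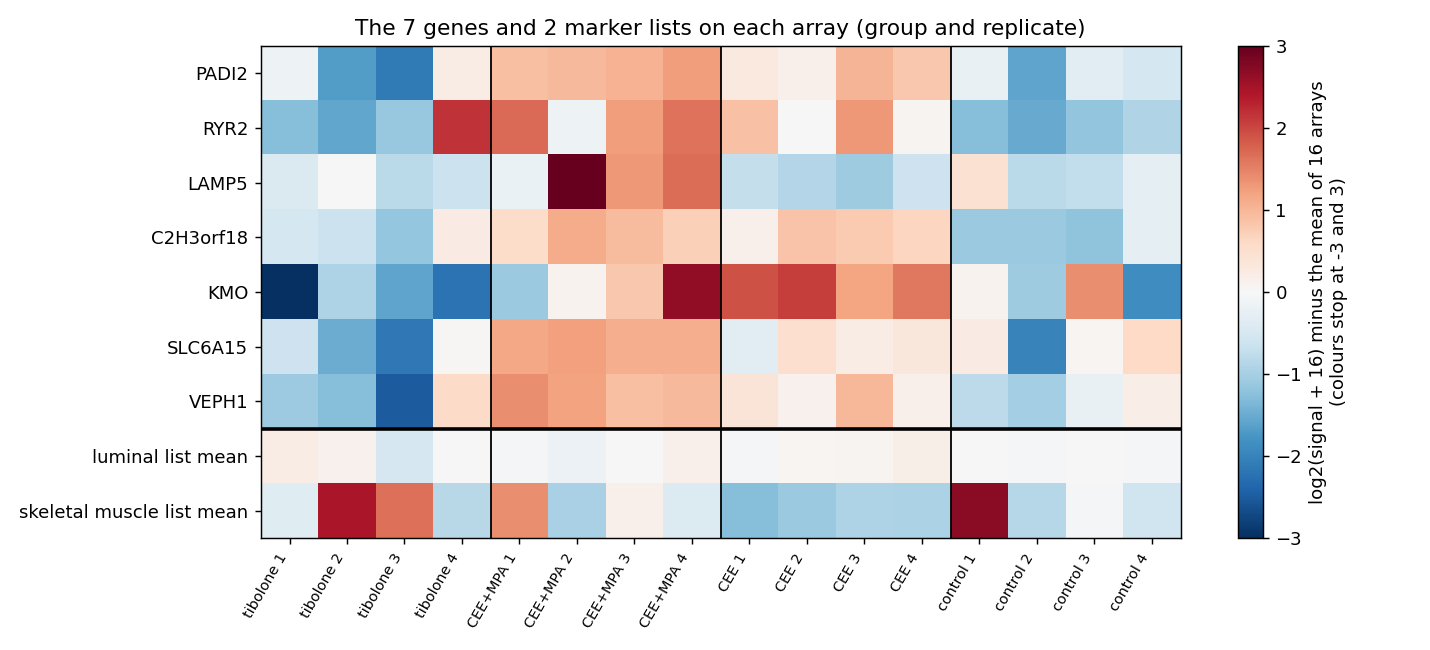
Level of each gene on each of the 16 arrays, as log2(signal + 16) minus the mean of all arrays, with the means of the luminal and skeletal muscle marker lists below the line. Tibolone replicates 2 and 3 are low in PADI2, SLC6A15 and VEPH1 and high in muscle markers (2.45 and 1.64), while control replicate 2 is low in the same genes with low muscle markers (-0.85).

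Within the low and high spike-in sets, 2 against 2 arrays, all 7 genes lay higher with CEE+MPA than control, by 0.80 to 2.71 in the low set and by 0.92 to 2.74 in the high set. That direction is partly built in by the choice of the genes. CEE minus control for C2H3orf18 was 1.23 in the low set (limma, adjusted p = 0.754) and 1.83 in the high set (limma, adjusted p = 0.172), and with the sets as a block it was 1.53 (limma, adjusted p = 0.0548). For SLC6A15 CEE minus control was -0.24 in the low set and 1.15 in the high set. For RYR2 CEE+MPA minus CEE was 1.22 in the low set and -0.14 in the high set. The log2 ratio of 3 prime to 5 prime GAPDH signal, a sign of RNA integrity, was 0.11 to 0.87 with tibolone. It was 0.0085 to 0.78 with CEE+MPA, 0.0024 to 0.77 with CEE and 0.21 to 0.70 in controls. In the low set this ratio was 0.0024 to 0.25, and on the high arrays other than tibolone 0.66 to 0.78. Outside tibolone the 2 sets thus differed in this ratio as well as in spike-in signal, and the 2 cannot be told apart.

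PADI2, SLC6A15 and VEPH1 varied together across the 16 arrays, with r of 0.87 to 0.90 for the 3 pairs, and still 0.71 to 0.83 once each group's mean was removed. C2H3orf18 correlated with these 3 at 0.74 to 0.84, and RYR2 at 0.60 to 0.78. KMO stood apart, with r of 0.16 to 0.50 to the other 6 genes and of -0.33 to 0.19 with group means removed. LAMP5 likewise reached 0.13 to 0.51, and -0.43 to 0.25 with group means removed. All pairs share their arrays and tissue samples, and these values are descriptions.

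Among the genes tested, those most like each member were found by Pearson's r over the 16 arrays. For PADI2 the nearest was ELF5 (r = 0.96, Spearman's rho = 0.92, and r = 0.91 without the 2 arrays farthest from the median), followed by EEF1AKMT3, a methyltransferase gene, and LOC699168. ELF5 was also among the 3 nearest to SLC6A15 (0.92), with SOSTDC1, a secreted antagonist of BMP and Wnt signalling (0.92), and TMEM106C. ELF5 had a signal of 6772 ± 3800 with tibolone, 14736 ± 1081 with CEE+MPA and 12510 ± 910 with CEE, against 7786 ± 2572 in controls (SD, n = 4 each). VEPH1 was nearest to EEF1AKMT3 (0.96), LOC718128 and TRAPPC6A. C2H3orf18 was nearest to LOC696591 (0.93), STAT5A (0.93) and STAT5B (0.93), transcription factors that prolactin signalling activates. STAT5A averaged 547 ± 277 with tibolone, 1219 ± 145 with CEE+MPA and 1102 ± 160 with CEE, against 403 ± 223 in controls (SD, n = 4 each). RYR2 was nearest to PPP1R13B (0.89), NEXMIF (0.87) and the cyclin gene CCNG1 (0.85). For LAMP5 the nearest were CRLS1 (0.84), ABHD5 (0.83) and KXD1 (0.82), which stood at 0.71, 0.76 and 0.57 without the 2 arrays farthest from the median. For KMO, RWDD2B (0.81), LOC718788 (0.77) and ANKRD27 (0.76) came nearest. These values are descriptions over arrays that share their groups.

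Genes that act with the 7 or lie beside them were taken from 8 lists with 119 genes, of which 71 were tested, members left out. In CEE+MPA against control 2 of the 71 were higher and 4 lower (limma), or 2.82% and 5.63%, beside 2.74% of all genes higher and 4.96% lower. The median difference of the 71 was -0.10, and that of all genes was 0.01. In tibolone against CEE+MPA 5 were higher and 3 lower, or 7.04% and 4.23%, beside 3.98% and 3.37% of all genes, with medians of 0.07 and 0.01. In the other 4 comparisons 0 of the 71 passed, while an unadjusted p under 0.05 was found for 12 in CEE against control, beside 14.2% of all genes, and for 7 in tibolone against control, beside 4.83%. It was found for 8 in CEE+MPA against CEE, beside 7.58%, and for 15 in tibolone against CEE, beside 13%. Over all genes the share that passed was 0.0574% in CEE against control, 0.00957% in tibolone against control, 0.0287% in CEE+MPA against CEE and 0% in tibolone against CEE.

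Both list genes that rose with CEE+MPA belong to the neighbours of C3orf18 in the human genome. They were 2 of 7 neighbours tested, or 28.6%, beside 2.74% of all genes higher. HEMK1, a methyltransferase gene next to it, had a signal of 1900 ± 321 with CEE+MPA, against 1137 ± 207 in controls (SD, n = 4 each), a difference of 0.74 ± 0.19 (limma, adjusted p = 0.0318) that passed in 21 of 31 alternative analyses. CISH, which encodes an inhibitor of cytokine signalling and is a STAT5 target, had 2386 ± 784 with CEE+MPA, against 695 ± 334 in controls, a difference of 1.83 ± 0.39 (limma, adjusted p = 0.0157) that passed in 28 of 31. Both missed the threshold without control replicate 2, HEMK1 at an adjusted p of 0.115 and CISH at 0.0524 (limma). MAPKAPK3, a kinase gene next to CISH, had 701 ± 113 with CEE+MPA and 543 ± 69.1 in controls, a difference of 0.35 ± 0.14 that did not pass (limma, adjusted p = 0.145). With CEE alone HEMK1 stood at 0.56 ± 0.19 from control (limma, adjusted p = 0.262) and CISH at 1.74 ± 0.39 (limma, adjusted p = 0.103). HEMK1, CISH and MAPKAPK3 follow one another in the cynomolgus RefSeq gene table (assembly T2T-MFA8v1.1), in which C2H3orf18 was not matched under that symbol.

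**Figure D4:**
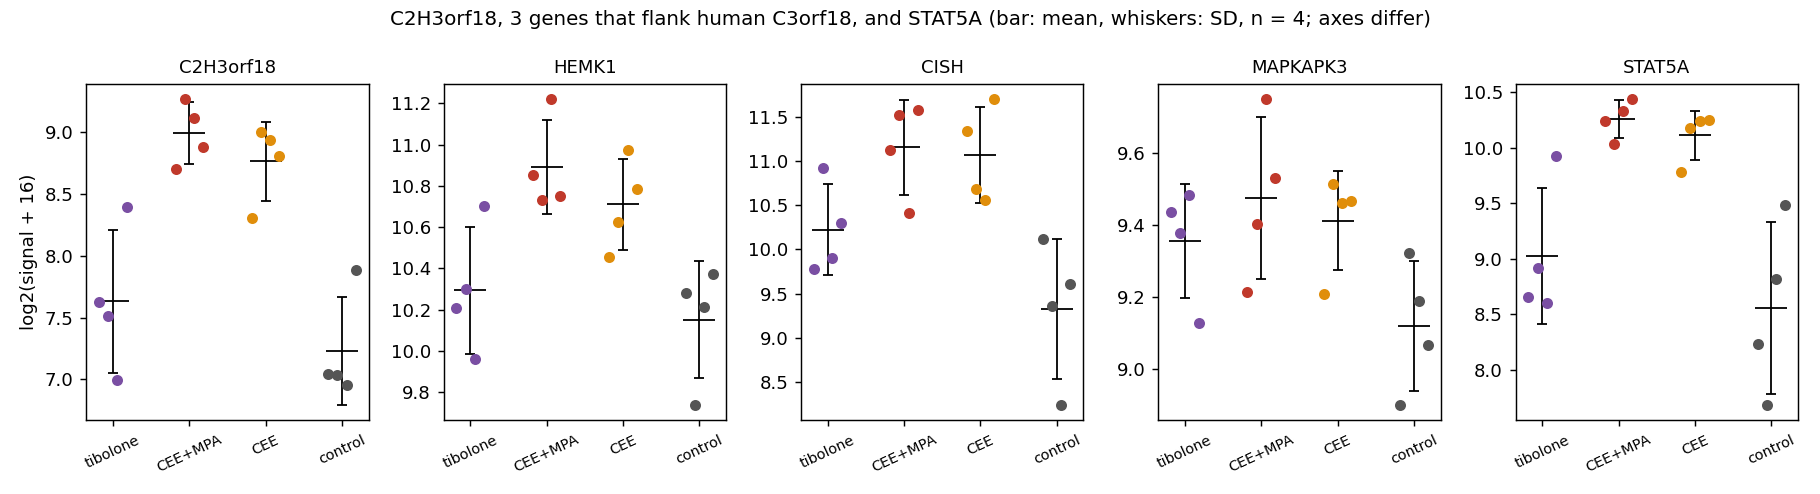
Signal of C2H3orf18, of HEMK1, CISH and MAPKAPK3, which flank C3orf18 in the human genome, and of STAT5A in log2(signal + 16); points are animals, bars group means and whiskers SD (n = 4). C2H3orf18, HEMK1, CISH and STAT5A lie higher on every CEE+MPA and CEE array than on every control array, and MAPKAPK3 overlaps.

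Of the genes for calcium release and uptake, 2 of the 17 tested fell with CEE+MPA against control, or 11.8%, beside 4.96% of all genes, and 0 rose, beside 2.74%. The median difference of the 17 was -0.17. ITPR1, an inositol trisphosphate receptor that also releases calcium, fell to 160 ± 59.6 with CEE+MPA, against 377 ± 118 in controls (SD, n = 4 each), a difference of -1.17 ± 0.30 (limma, adjusted p = 0.0328), which passed in 21 of 31 alternative analyses. JPH2, which tethers the reticulum to the plasma membrane in muscle, fell to 86.2 ± 18.3 with CEE+MPA, against 198 ± 40.9 in controls, by -1.06 ± 0.17 (limma, adjusted p = 0.00435), passing in 29 of 30. JPH2 was also higher with tibolone than CEE+MPA, by 0.91 ± 0.17 (limma, adjusted p = 0.0116). It was the 1 gene of the 17 higher in that comparison, or 5.88%, beside 3.98% of all genes. Smooth muscle markers, 8 of 9 tested, summed to 8060.5 to 13547 on CEE+MPA arrays and to 16756 to 24397 in controls, and their part in these 2 falls was not tested. Of the 29 genes in this list 17 were tested and 15 did not pass in CEE+MPA against control. RYR1 and RYR3 were not analysed here, and ITPR2 and ITPR3 were below the filter, with highest signals of 83.9 and 73.5.

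In the kynurenine pathway 0 of 11 tested genes passed in CEE+MPA against control, beside 7.69% of all genes, and 2 had an unadjusted p under 0.05, beside 28.3% of all genes. KYNU, the enzyme after KMO, averaged 144 ± 44.9 with CEE, against 317 ± 81.6 in controls (SD, n = 4 each), a difference of -1.08 ± 0.25 that did not pass (limma, adjusted p = 0.117), beside the KMO difference of 2.04 ± 0.73 in that comparison, which did not pass either (limma, adjusted p = 0.285). IDO1, which starts the pathway, stood at -0.20 ± 0.30 in CEE against control, HAAO, a later step, at 0.15 ± 0.15, and TDO2, at signals of at most 93.9, at -1.14 ± 0.46. In tibolone against CEE+MPA the aminotransferase gene KYAT3 was lower (672 ± 74.2 against 998 ± 118, -0.56 ± 0.14; limma, adjusted p = 0.0342). QPRT, on the branch to NAD, was higher in that comparison (138 ± 23.7 against 78.3 ± 13.8, 0.71 ± 0.19; limma, adjusted p = 0.0391). Each was lost when any of several single arrays was left out, KYAT3 passing in 17 of 30 and QPRT in 15 of 29 alternative analyses. Of the 11 tested genes they were 1 lower and 1 higher, or 9.09% each, beside 3.37% of all genes lower and 3.98% higher.

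Among the other deiminase genes PADI3 and PADI4 were tested and PADI1 was below the filter, at no more than 40.0. In CEE+MPA against control PADI3 stood at -0.18 ± 0.37 and PADI4 at -0.11 ± 0.25. Neither passed in any of the 6 comparisons (limma, lowest adjusted p 0.374 for PADI3 and 0.565 for PADI4). Of the lysosomal membrane genes LAMP2 was lower with tibolone than CEE+MPA (566 ± 60.7 against 915 ± 142, -0.67 ± 0.18; limma, adjusted p = 0.0403), as was TMEM192 (128 ± 34.0 against 257 ± 65.7, -0.92 ± 0.24; limma, adjusted p = 0.0379). LAMP2 passed in 15 of 30 alternative analyses and TMEM192 in 18 of 29. They were 2 of 8 lysosomal membrane genes tested, or 25%, beside 3.37% of all genes lower in that comparison. LAMP1 was not analysed here, and LAMP3 did not exceed a signal of 13.3. Of the SLC6 and neutral amino acid transporters 8 of 24 were tested. In CEE+MPA against control 1 of the 8 was lower, or 12.5%, beside 4.96% of all genes. In tibolone against CEE+MPA 2 were higher, or 25%, beside 3.98% of all genes. SLC6A2, the noradrenaline transporter gene, fell to 16.02 ± 5.39 with CEE+MPA, against 64.2 ± 28.5 in controls (-1.26 ± 0.31; limma, adjusted p = 0.0294). With tibolone SLC6A2 stood at 72.8 ± 50.5 (1.34 ± 0.31 against CEE+MPA; limma, adjusted p = 0.0264) and SLC6A3, the dopamine transporter gene, at 179 ± 42.2, against 88.3 ± 31.2 with CEE+MPA (0.93 ± 0.25; limma, adjusted p = 0.0405). SLC6A2 passed in 19 of 30 alternatives against control and 21 of 29 against CEE+MPA, and SLC6A3 in 15 of 29. SLC6A14, a broad amino acid transporter, stood at 0.36 ± 0.48 in CEE+MPA against control (limma, adjusted p = 0.706), and SLC6A6, with a highest signal of 62.3, was not tested.

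In the list of FOXO, TSC, Hippo and TGF-beta receptor genes, chosen for VEPH1, 15 genes were tested and SMAD3 alone passed. In CEE+MPA against control this was 1 lower of 15, or 6.67%, beside 4.96% of all genes. In tibolone against CEE+MPA it was 1 higher of 15, or 6.67%, beside 3.98% of all genes. SMAD3, which carries the TGF-beta signal to the nucleus, fell to 409 ± 7.14 with CEE+MPA, against 769 ± 85.5 in controls (SD, n = 4 each), by -0.88 ± 0.18 (limma, adjusted p = 0.0124), which passed in 29 of 31 alternatives. SMAD3 was higher with tibolone (718 ± 153) than CEE+MPA, by 0.76 ± 0.18 (limma, adjusted p = 0.0249). Of the steroid receptor genes PGR, the progesterone receptor, had a signal of 75.1 ± 73.4 with tibolone, 17.6 ± 8.86 with CEE+MPA and 88.7 ± 49.5 with CEE, against 17.7 ± 3.67 in controls (SD, n = 4 each). PGR differed by 1.51 ± 0.48 between CEE and control (limma, adjusted p = 0.241) and by -1.55 ± 0.48 between CEE+MPA and CEE (limma, adjusted p = 0.438), and neither passed. ESR1 did not exceed 64.1 on any array and was not tested. Without the 4 arrays with high skeletal muscle signal, 3 list genes passed in CEE+MPA against control and 0 in tibolone against CEE+MPA.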

How the data were processed

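Total RNA of mammary tissue was extracted with Tri-reagent and RNeasy columns, biotin labelled and hybridised to 1 array per animal, per the labels' protocols. The deposited values were linear intensity (signal) per probe set, scaled by the authors to a 2% trimmed mean of about 250.02 on every array. GCOS and Affymetrix Expression Console are named per the submitters' processing notes, without a version, and the signal algorithm is not given in the sources used here. Precision is limited by the number of arrays.

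Of 52865 probe sets, 99 controls were left out, and 24956 carried 1 symbol, 361 several and 27535 none. Those with a signal over 60.2 on at least 4 arrays were tested, 28704 probe sets for 10452 genes, with the brightest tested probe set on average standing for a gene. Of these symbols 9557 were in the cynomolgus RefSeq gene table (assembly T2T-MFA8v1.1). Probes were designed on rhesus sequence. One limma model (limma 3.58.1, R 4.3.3) of 4 group means was fitted to log2(signal + 16), which understates changes of low signals, with Benjamini-Hochberg adjustment within each comparison at 0.05, and was tested on simulated data. Figures used matplotlib 3.10.9 under Python 3.11.15.

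The 7 genes and all gene lists were chosen with earlier results of these data known. Comparisons with CEE+MPA arrays are therefore descriptions for the 7 genes. Genes named beside them were the 3 of highest Pearson's r to each, every pathway list gene past the threshold, and, whatever their values, the near relatives, pathway partners and steroid receptors listed with them. Marker genes were named as checks of tissue content. Replicate numbers follow the order of deposition. Alternatives were other scalings, filters, offsets, spike-in sets, marker covariates, smaller models, array weights, mean probe sets and each array left out.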

Additional observations from a re-analysis of the deposited data

Results flagged for a closer look

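RYR2 on tibolone replicate 4 had a signal of 1055, with the other 3 tibolone arrays at 65.8 to 93.3, a gap that takes up 0.887 of the range of the group on the log2 scale. C2H3orf18 on control replicate 4 had a signal of 221, with the other 3 controls at 108 to 116, a gap of 0.907 of the range. These 2 were flagged among 48 sets of 4 arrays, 12 probe sets in 4 groups. Chance alone marks about 1 in 20, so 2 flags are no more than chance would give. Neither flag is by itself a reason to leave the array out. RYR2 in tibolone against CEE stood at -1.89 without that array (limma, adjusted p = 0.0417), and at -1.02 with it (adjusted p = 0.538). C2H3orf18 in CEE against control stood at 1.75 without control replicate 4 (limma, adjusted p = 0.0214), and at 1.53 with it (adjusted p = 0.0504).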

How the results depend on the processing

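No paired analysis was possible because no animal was in 2 groups and replicate numbers only follow the order of deposition. In CEE against control 1 of the 7 genes passed (limma) with median centring, with the filter at the 75th percentile, with an offset of 64 and with array weights, 1 passed without tibolone replicate 3, tibolone replicate 4, CEE+MPA replicate 2 or control replicate 4, and 2 passed in a model of only the groups compared, with 0 in the other 22 alternatives. For SLC6A15 in CEE against control leaving out single arrays gave -0.12 to 0.74, and in tibolone against control -0.65 to 0.13 for PADI2, -0.094 to 1.14 for RYR2, -0.28 to 0.14 for LAMP5, 0.15 to 0.62 for C2H3orf18, -2.10 to -1.01 for KMO, -1.36 to -0.42 for SLC6A15 and -1.17 to -0.14 for VEPH1. In counts it gave 0 to 1 in CEE against control, 0 to 4 in tibolone against CEE, and 0 in tibolone against control. LAMP5 and VEPH1 have no value at the stricter filter, which they did not pass. The median difference of the 7 genes in tibolone against CEE+MPA was -1.64 with a gene's probe sets averaged and -1.29 without the 4 arrays with high skeletal muscle signal, an alternative chosen after seeing the data, against -2.13.

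Pathway list genes past the threshold in CEE against control numbered 1 with array weights and 0 to 1 with single arrays left out, against 0. In CEE+MPA against control there were 6, against 3 without a filter, 0 in the low and 2 in the high spike-in set, 11 with array weights, 10 with mean probe sets, 3 without the muscle arrays and 1 to 9 with single arrays left out. In tibolone against CEE+MPA there were 8, against 3 without a filter, 4 at the stricter filter, 2 with the spike-in set as a block, 1 in the high set, 3 with the muscle covariate, 1 with only the groups compared, 0 without the muscle arrays and 1 to 14 with single arrays left out.

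Directions turned in 12 cases. Tibolone against CEE turned for LAMP5 to -0.011 with the spike-in block. CEE against control turned for SLC6A15 to -0.24 in the low set and -0.12 without control replicate 2. CEE+MPA against CEE turned for RYR2 to -0.14 in the high set. Tibolone against control turned for PADI2 to 0.18 with mean probe sets, 0.13 without tibolone replicate 3 and 0.85 without the muscle arrays, for RYR2 to -0.094 without tibolone replicate 4, and for LAMP5 to 0.14 without control replicate 1. Without the muscle arrays it also turned to 0.080 for LAMP5, 0.16 for SLC6A15 and 0.088 for VEPH1. The cause was not tested. Probe sets past the threshold ranged from 2 to 140 in CEE against control, against 21, and from 0 to 238 in tibolone against CEE, against 2. They ranged from 0 to 3729 in CEE+MPA against control, against 1819, and from 348 to 2317 with single arrays left out, and from 0 to 3333 in tibolone against CEE+MPA, against 1820, and from 209 to 3333 with single arrays left out. The shares of all genes given beside the counts move with these numbers.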
